A study of Mus musculus with 6 samples.

Results

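The neutrophil granule genes described here are 10 genes chosen by name: the primary granule genes Mpo, Elane, Prtn3 and Ctsg, the secondary granule genes Ltf, Camp, Ngp and Lcn2, and the calprotectin genes S100a8 and S100a9. They are 10 of 19937 genes with a level on Affymetrix arrays. The cells were mouse splenic plasmacytoid dendritic cells (pDCs), which make type I interferon, and each member had 1 probe set with its symbol alone. The groups were 3 arrays from IRF8-deficient (KO) mice and 3 from wild-type (WT) mice, all from cells positive for B220 and SiglecH. The labels leave out strain, age, the altered part of Irf8, the cells in which it was altered and any pooling of animals. Nothing says that the arrays came from separate animals, so p-values measure the spread between these arrays, which may be technical.

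Of 10 measured pDC markers, all lay at 8.48 or above in every array, and 2 of them, Ccr9 and Pacsin1, fell in KO. Siglech, the gene of the surface receptor used in the sort, lay between 12.18 and 12.34 in KO and between 12.52 and 12.75 in WT on the log2 scale of the deposited levels. Irf8 itself lay between 10.15 and 10.79 in KO and between 9.97 and 10.24 in WT, so its level does not check the genotype labels, which set every direction given here. Array medians lay between 5.53 and 5.56, and 25% of all levels were under 4.56, a zone where a low signal can hide part of a change. These were bulk samples, in which fewer cells of a type and less RNA per cell cannot be told apart.

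Neutrophils store antimicrobial proteins in granules that are filled one after another as the cell matures. Primary (azurophil) granules are filled in promyelocytes with myeloperoxidase and serine proteases, and secondary (specific) granules in later myelocytes and metamyelocytes with lactoferrin, the cathelicidin peptide and lipocalin 2. S100A8 and S100A9 form calprotectin, a calcium- and zinc-binding protein of the cytosol that is also abundant in monocytes. A pDC is not known for either kind of granule, and IRF8 is known for favouring dendritic cell and monocyte fates over the neutrophil fate in progenitors.

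Promoters of both granule stages are shown because the levels below differed in size between the stages. The sequences are the 250 bases before the annotated start of each gene, from RefSeq on GRCm38.p6, read 5′ to 3′ on the gene's own strand, and all 10 genes had an entry. Capitals mark 2 short motifs found on either strand: GAGGAA, the core bound by the ETS factor PU.1, and TTNNGCAA, a site of C/EBP factors. The windows are chr10:79886062-79886311 (+ strand) for Elane, chr10:79879417-79879666 (+) for Prtn3, chr9:111019042-111019291 (+) for Ltf, chr9:110419558-110419807 (+) for Ngp, chr2:32387740-32387989 (- strand) for Lcn2 and chr3:90668821-90669070 (+) for S100a8.
Elane: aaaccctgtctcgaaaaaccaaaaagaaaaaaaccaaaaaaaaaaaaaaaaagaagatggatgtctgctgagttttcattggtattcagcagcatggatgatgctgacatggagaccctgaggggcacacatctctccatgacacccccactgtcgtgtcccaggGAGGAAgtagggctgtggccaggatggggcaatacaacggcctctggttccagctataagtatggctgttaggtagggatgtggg
Prtn3: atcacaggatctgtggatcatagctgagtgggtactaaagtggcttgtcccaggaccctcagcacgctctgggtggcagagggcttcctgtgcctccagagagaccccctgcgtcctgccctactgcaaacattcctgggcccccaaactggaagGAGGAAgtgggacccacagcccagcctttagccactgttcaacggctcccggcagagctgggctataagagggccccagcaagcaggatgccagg
Ltf: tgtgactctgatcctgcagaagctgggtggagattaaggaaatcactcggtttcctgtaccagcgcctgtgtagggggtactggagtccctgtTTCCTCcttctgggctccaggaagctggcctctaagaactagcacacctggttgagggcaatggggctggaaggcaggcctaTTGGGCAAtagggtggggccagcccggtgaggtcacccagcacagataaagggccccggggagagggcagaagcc
Ngp: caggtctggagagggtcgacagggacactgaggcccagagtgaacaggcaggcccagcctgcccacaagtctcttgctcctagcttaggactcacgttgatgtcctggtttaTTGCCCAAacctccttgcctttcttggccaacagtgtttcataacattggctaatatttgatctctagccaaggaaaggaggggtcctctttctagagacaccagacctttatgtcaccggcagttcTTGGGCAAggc
Lcn2: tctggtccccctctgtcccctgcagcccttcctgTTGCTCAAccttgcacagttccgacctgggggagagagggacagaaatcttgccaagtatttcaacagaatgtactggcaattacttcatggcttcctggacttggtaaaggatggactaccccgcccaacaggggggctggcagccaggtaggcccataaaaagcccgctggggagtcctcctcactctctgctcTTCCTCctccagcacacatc
S100a8: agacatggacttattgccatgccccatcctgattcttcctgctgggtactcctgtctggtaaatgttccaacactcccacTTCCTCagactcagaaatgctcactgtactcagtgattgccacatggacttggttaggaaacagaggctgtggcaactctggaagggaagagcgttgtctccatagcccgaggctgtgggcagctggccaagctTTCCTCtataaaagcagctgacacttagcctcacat

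GAGGAA stood in the windows of all 4 primary granule genes, on the strand of the gene each time, and in 3 of the 6 others, Ltf, Lcn2 and S100a8, on the opposite strand. In Elane and Prtn3, which lie next to each other on chromosome 10, it began 85 and 95 bases before the start. TTNNGCAA was in 0 of the 4 primary granule windows and in 4 of the 6 others, Ltf, Ngp, Lcn2 and S100a9. In Ngp it occurred at 138 and at 11 bases before the start. Camp held neither. Over all 32851 RefSeq promoter windows of the same length, 23.3% held GAGGAA and 9.6% held TTNNGCAA. An ETS and IRF composite motif (GGAA, 2 free bases, then GAAA) and an interferon response motif (GAAA, 2 free bases, then GAAA) were in 0 of the 10 windows, against 2.3% and 3.0% of all windows. No match of one motif overlapped a match of another. Ltf, Camp and Ngp lie on chromosome 9, S100a8 and S100a9 on chromosome 3, Lcn2 on chromosome 2, Mpo on chromosome 11 and Ctsg on chromosome 14. A match is a run of letters and not a measured binding site.

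The calprotectin genes varied widely within both genotypes, with the largest spread of the 10 members within WT, and KO replicate 1 was the highest of the 6 arrays for both. S100a8, whose protein is the smaller partner of calprotectin, measured 12.70, 8.99 and 7.48 in KO replicates 1 to 3, against 9.34, 4.87 and 4.44 in WT replicates 1 to 3. The genotypes overlapped, since WT replicate 1 lay above KO replicates 2 and 3. The means were 9.72 ± 2.69 in KO and 6.22 ± 2.72 in WT (SD, n = 3 each). They differed by 3.50 log2 units (SE 1.61, 95% interval -0.24 to 7.25, limma adjusted p = 0.351). S100a9, the other partner, measured 12.65, 9.73 and 7.25 in KO replicates 1 to 3, against 9.12, 5.99 and 4.94 in WT replicates 1 to 3. Its WT replicate 1 lay above KO replicate 3 and below KO replicate 2. Its log2 difference was 3.19 (SE 1.46, 95% interval -0.21 to 6.60, limma adjusted p = 0.349). Within WT, replicate 1 exceeded replicates 2 and 3 by 4.47 and 4.91 log2 units for S100a8 and by 3.12 and 4.18 for S100a9, so 1 WT array carried most of the spread of its group.

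The secondary granule genes were high in 1 array alone, KO replicate 1, and low in the other 5. Lcn2, whose protein binds bacterial siderophores, measured 11.40, 5.61 and 5.01 in KO replicates 1 to 3, against 5.73, 5.14 and 5.02 in WT replicates 1 to 3. KO replicate 1 was 50.9-fold above the next highest array, which was WT replicate 1, and KO replicates 2 and 3 lay below it. Camp, which encodes the cathelicidin antimicrobial peptide, measured 10.93, 6.48 and 5.98 in KO, against 6.11, 5.76 and 5.64 in WT. KO replicate 1 was 21.9-fold above KO replicate 2, and KO replicate 3 lay inside the WT range. Ltf, which encodes the iron-binding lactoferrin, measured 7.31, 4.48 and 4.25 in KO, against 4.39, 4.58 and 4.26 in WT. KO replicate 1 was 6.65-fold above the next highest array, WT replicate 2, and KO replicate 3 was the lowest of all. Log2 differences between the genotypes were 2.05 for Lcn2 (limma adjusted p = 0.599), 1.96 for Camp (0.489) and 0.94 for Ltf (0.625).

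Ngp was the 1 member whose 3 KO arrays all exceeded all 3 WT arrays. The gene encodes neutrophilic granule protein, a cathelicidin-related protein of mouse granules, and measured 10.43, 5.76 and 5.62 in KO replicates 1 to 3, against 5.17, 4.46 and 4.45 in WT replicates 1 to 3. Such separation, KO above WT, held for 1 of the 10 members and for 8.71% of all genes. The log2 difference was 2.58 (SE 1.17, 95% interval -0.14 to 5.30, limma adjusted p = 0.343), and an exact two-sided permutation test gave p = 0.10, which no design of 3 against 3 can go below.

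The primary granule genes were also highest in KO replicate 1, by smaller amounts. Mpo, which encodes the enzyme that makes hypochlorous acid, measured 7.21, 5.66 and 5.39 in KO replicates 1 to 3, against 5.28, 5.47 and 5.23 in WT replicates 1 to 3. Elane, which encodes neutrophil elastase, measured 7.13, 5.35 and 4.99 in KO, against 4.67, 5.25 and 4.88 in WT. In both genes KO replicate 3 lay inside the WT range and KO replicate 2 stood slightly above the highest WT array. Prtn3, which encodes proteinase 3, measured 5.87, 5.27 and 5.04 in KO, against 5.34, 5.31 and 4.62 in WT, so KO replicate 1 exceeded the highest WT array by 0.53. Ctsg, which encodes the protease cathepsin G, measured 5.09, 4.51 and 4.16 in KO, against 4.31, 4.27 and 4.04 in WT, all but 1 of them under the 4.56 limit. The log2 differences were 0.76 for Mpo (SE 0.43, limma adjusted p = 0.464), 0.89 for Elane (SE 0.51, 0.472), 0.30 for Prtn3 (SE 0.27, 0.68) and 0.38 for Ctsg (SE 0.23, 0.494).

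**Figure D1:**
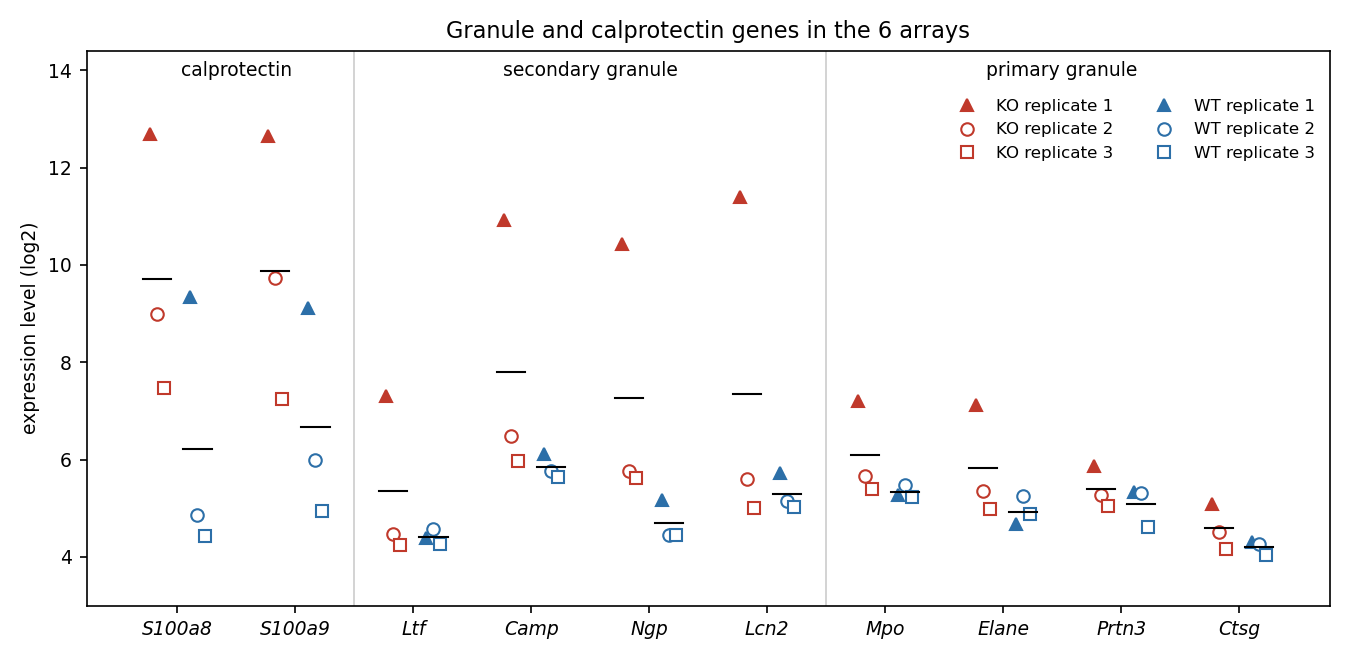
Expression level (log2, vertical axis) of the 10 genes in each array, with KO arrays in red on the left and WT arrays in blue on the right of each gene; triangles are replicate 1, circles replicate 2 and squares replicate 3, and black bars are group means. KO replicate 1 is the highest point for all 10 genes, and WT replicate 1 stands clear of the other WT arrays for S100a8 (9.34) and S100a9 (9.12).

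None of the 10 genes passed the threshold between the genotypes. By limma, with p-values adjusted over all genes by the Benjamini-Hochberg method and a threshold of 0.05, 0 of the 10 rose and 0 fell, while 4.38% of all genes passed, 2.30% higher and 2.08% lower in KO. At an unadjusted limma p under 0.05 the count was also 0 of 10, against 3203 of all 19937 genes. The smallest unadjusted limma p of a member was 0.0601, for Ngp. All 10 differences were positive, with a median of 1.45. Over all genes 8342 of 19937 differences were positive, with a median of -0.04. Every 95% interval included 0, and those of the later genes were wide, so no difference was detected and a large one is not shown to be absent.

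A single array gave the highest level of every member. KO replicate 1 was the highest of the 6 arrays for 10 of the 10 members, as it was for 19.5% of all genes. It exceeded every other array by more than 1 log2 unit for 8 members, all but Prtn3 and Ctsg, and for 0.657% of all genes. It did so by more than 2 units for 6 members, the calprotectin and secondary granule genes, and for 0.150% of all genes. This was not particular to the members, since KO replicate 1 exceeded every other array by more than 1 unit for 13 of 14 mitosis genes and by more than 2 for 8. Among 12 other later granule genes it did so by more than 2 units for 4. The patterns of the 10 genes over the 6 arrays ran in parallel, with Pearson correlations of 0.70 to 1.00 (median 0.92) over the 45 pairs, a description that rests mainly on KO replicate 1.

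Primary and later granule genes were set against each other by the shift of each gene from its own WT mean, because levels of different probe sets cannot be compared. In KO replicate 1 the median shift was 1.39 log2 units for the 4 primary genes and 5.85 for the 6 secondary and calprotectin genes, a primary minus later value of -4.47. That value was -0.53 in KO replicate 2, -0.35 in KO replicate 3, -0.42 in WT replicate 1, 0.38 in WT replicate 2 and 0.12 in WT replicate 3. The 6 later members were thus further above their WT means than the 4 primary genes in KO replicate 1. This did not hold for later genes in general. In that array the 12 other later granule genes had a median shift of 1.16 and the 12 measured mature neutrophil genes 0.92. The 6 later members divided further. In KO replicate 2 and WT replicate 1 the calprotectin genes had median shifts of 2.91 and 2.78, while the secondary granule genes had 0.48 and 0.35 and the primary genes 0.32 and 0.03. Calprotectin was thus the part of the signal that stood out in arrays of both genotypes. These shifts are descriptions with no test, and shifts of genes near the low end of the scale, such as Ctsg and Ltf, may be understated.

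**Figure D2:**
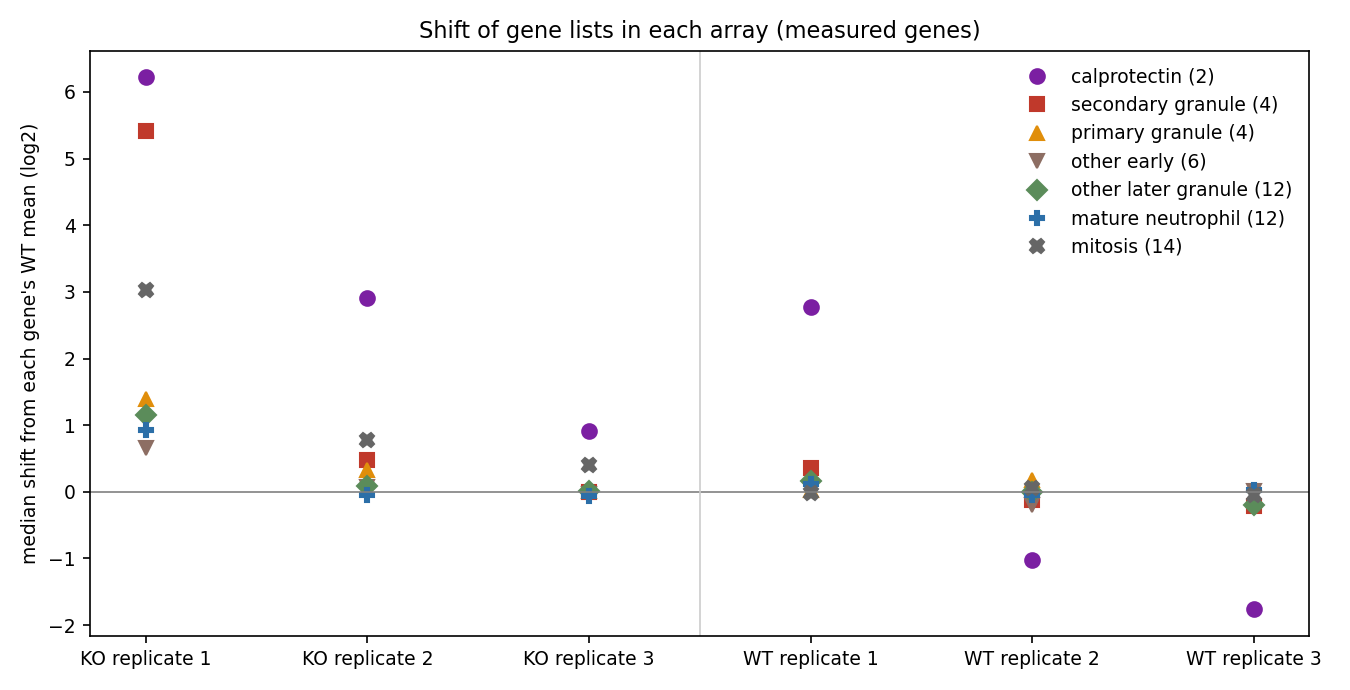
Median shift from each gene's WT mean (log2, vertical axis) for 7 gene lists in each of the 6 arrays, with KO arrays left of WT arrays and the number of measured genes in brackets. In KO replicate 1 calprotectin (6.22), secondary granule (5.42) and mitosis genes (3.03) stand above primary granule genes (1.39). Other later granule (1.16), mature neutrophil (0.92) and other early genes (0.66) stand below them. In KO replicate 2 and WT replicate 1 calprotectin stands apart from the granule lists.

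Leaving out KO replicate 1, the highest array for each of the 10 members, lowered every difference, as it had to. Without it, 1 of the 10 genes passed the threshold and 3.91% of all genes were higher in KO. That gene was Ngp, which rose by 1.00 log2 units (SE 0.23, limma adjusted p = 0.042). KO replicate 1 was its highest array, so leaving that array out narrows the KO spread by itself. The separation of all KO from all WT arrays also held for Ngp alone, 1 of 10 members, against 14.6% of all genes. S100a8 and S100a9 then differed by 2.02 and 1.81 (limma adjusted p = 0.481 and 0.477), and Camp by 0.40 (0.337). Lcn2 differed by 0.02, Ltf by -0.04 and the 4 primary genes by 0.06 to 0.24. Leaving out WT replicate 1 alone moved S100a8 and S100a9 the other way, to differences of 5.07 and 4.41 (limma adjusted p = 0.134 and 0.196). Leaving out KO replicate 3 gave 4.63 and 4.51 (0.304 and 0.193).

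Without KO replicate 1 and WT replicate 1 together, 2 of the 10 genes passed the threshold and 3.72% of all genes were higher in KO. S100a8 rose by 3.58 (SE 0.45, limma adjusted p = 0.00589) and Ngp by 1.24 (SE 0.13, 0.00349). S100a9 differed by 3.02 (SE 0.74, 0.0628). Both KO arrays exceeded both WT arrays for 4 of the 10 members, S100a8, S100a9, Camp and Ngp, as they did for 20.1% of all genes. None of the primary granule genes was among them. With 2 arrays a group these values rest on a spread pooled over all genes. The 2 arrays left out were the highest of their groups for S100a8, S100a9 and Ngp. Leaving them out narrows the spread by itself, so these p-values are a description.

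**Figure D3:**
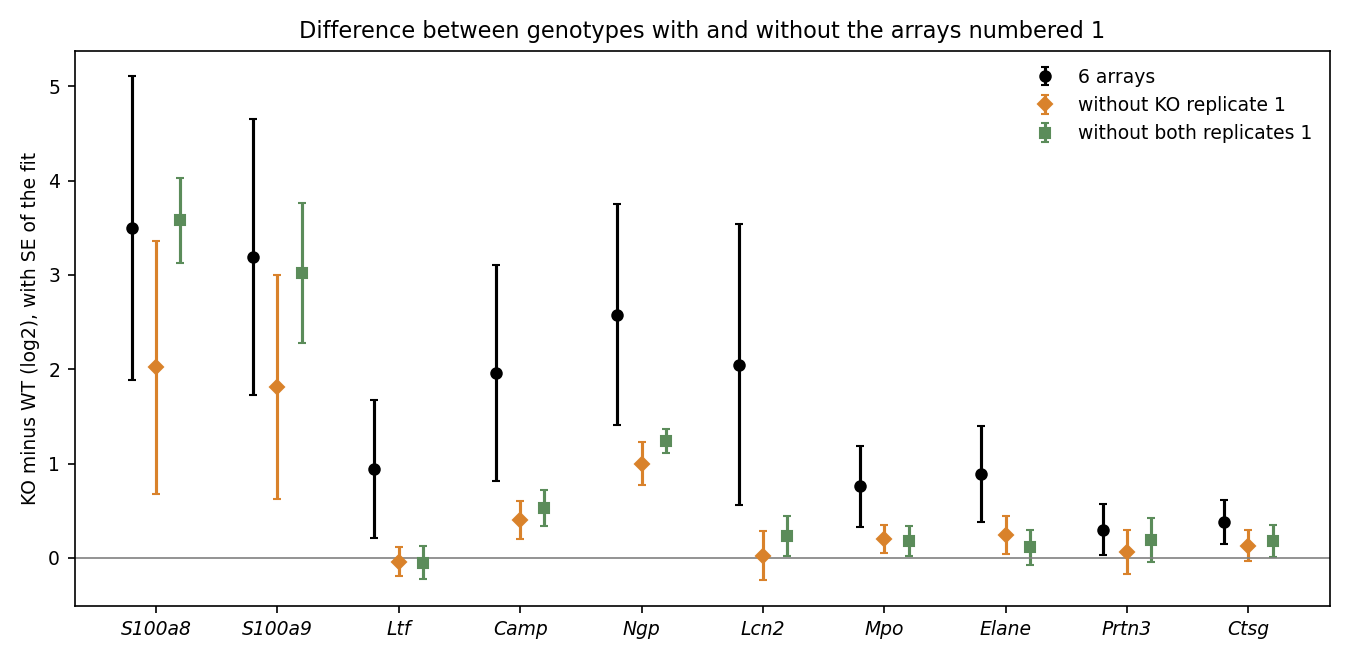
KO minus WT difference (log2, vertical axis) with the standard error of the fit for the 10 genes, from all 6 arrays (black circles), without KO replicate 1 (orange diamonds) and without both replicates 1 (green squares). The differences of Lcn2 (2.05) and Ltf (0.94) fall to about 0 without KO replicate 1. S100a8 is at 3.50 with all arrays, 2.02 without KO replicate 1 and 3.58 without both replicates 1.

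Other genes of early neutrophil development, a list of 6, did not move as one. Serpinb1a, an inhibitor of the neutrophil serine proteases, rose by 2.89 log2 units (SE 0.46, limma adjusted p = 0.0137). It measured 7.93, 6.05 and 6.84 in KO, against 3.75, 3.75 and 4.65 in WT. Cst7, which encodes the protease inhibitor cystatin F, rose by 1.79 (SE 0.30, adjusted p = 0.0167), at 8.44, 7.40 and 7.20 in KO, against 5.99, 5.76 and 5.93 in WT. For both genes all 3 KO arrays lay above all WT arrays, as they did for Ngp, and both passed without KO replicate 1 (adjusted p = 0.00638 and 0.00148). The other 4 passed in neither direction. One of them, named after its values were seen, was Ms4a3, a membrane protein of granulocyte and monocyte progenitors, at 5.51, 4.77 and 4.81 in KO, against 4.87, 5.03 and 4.96 in WT. The list's median difference was 0.17.

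Of 12 other later granule genes, 0 rose and 0 fell by limma over all genes, and 0 had an unadjusted p under 0.05, with a median difference of 0.41. KO replicate 1 was the highest array for 10 of the 12. Chil3, a chitinase-like protein, measured 9.04, 5.90 and 4.69 in KO, against 4.38, 4.70 and 4.73 in WT. Lyz2, which encodes lysozyme and is shared with monocytes and macrophages, measured 8.55, 5.29 and 3.91 in KO, against 5.89, 4.38 and 3.86 in WT. WT replicate 1 was its second highest array, as for S100a8. Without KO replicate 1 the list's median was 0.02.

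Of 12 measured genes of mature neutrophils, 1 rose and 0 fell, with a median difference of 0.33. Il1b, which encodes interleukin 1 beta, rose by 1.40 (SE 0.16, limma adjusted p = 0.0034). Unlike the granule genes it was lowest in replicate 1 within KO, at 7.27, 7.53 and 7.75, against 6.29, 5.91 and 6.15 in WT. Ly6g, which encodes the surface marker that defines mouse neutrophils, measured 4.65, 3.73 and 3.94 in KO, against 4.07, 3.60 and 3.90 in WT. Cxcr2, the chemokine receptor of mature neutrophils, measured 5.35, 3.95 and 3.70 in KO, against 4.51, 3.97 and 4.42 in WT. Csf3r, the G-CSF receptor, measured 4.72, 4.37 and 4.47 in KO, against 4.53, 4.39 and 4.39 in WT. Each of these 3 was highest in KO replicate 1, by 0.19 to 0.84 log2 units, as were 10 of the 12 genes of the list. Retnlg, a resistin-like protein of mouse neutrophils, moved far more, at 9.25, 4.47 and 4.50 in KO, against 5.65, 4.22 and 4.32 in WT, with KO replicate 1 12.1-fold above the next array. Wfdc21 and Stfa3 exceeded every other array there by 1.46 and 1.29. These 6 genes were named after their values were seen. The summed level of the list, as log2, lay between 8.92 and 10.48 in KO and between 8.34 and 8.62 in WT. That sum includes Il1b and weighs bright genes most. The list's median shifts were 0.92, -0.05 and -0.07 in KO replicates 1 to 3, against 0.11, -0.05 and 0.02 in WT replicates 1 to 3. By the median, the list as a whole was thus not higher in KO replicates 2 and 3.

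**Figure D4:**
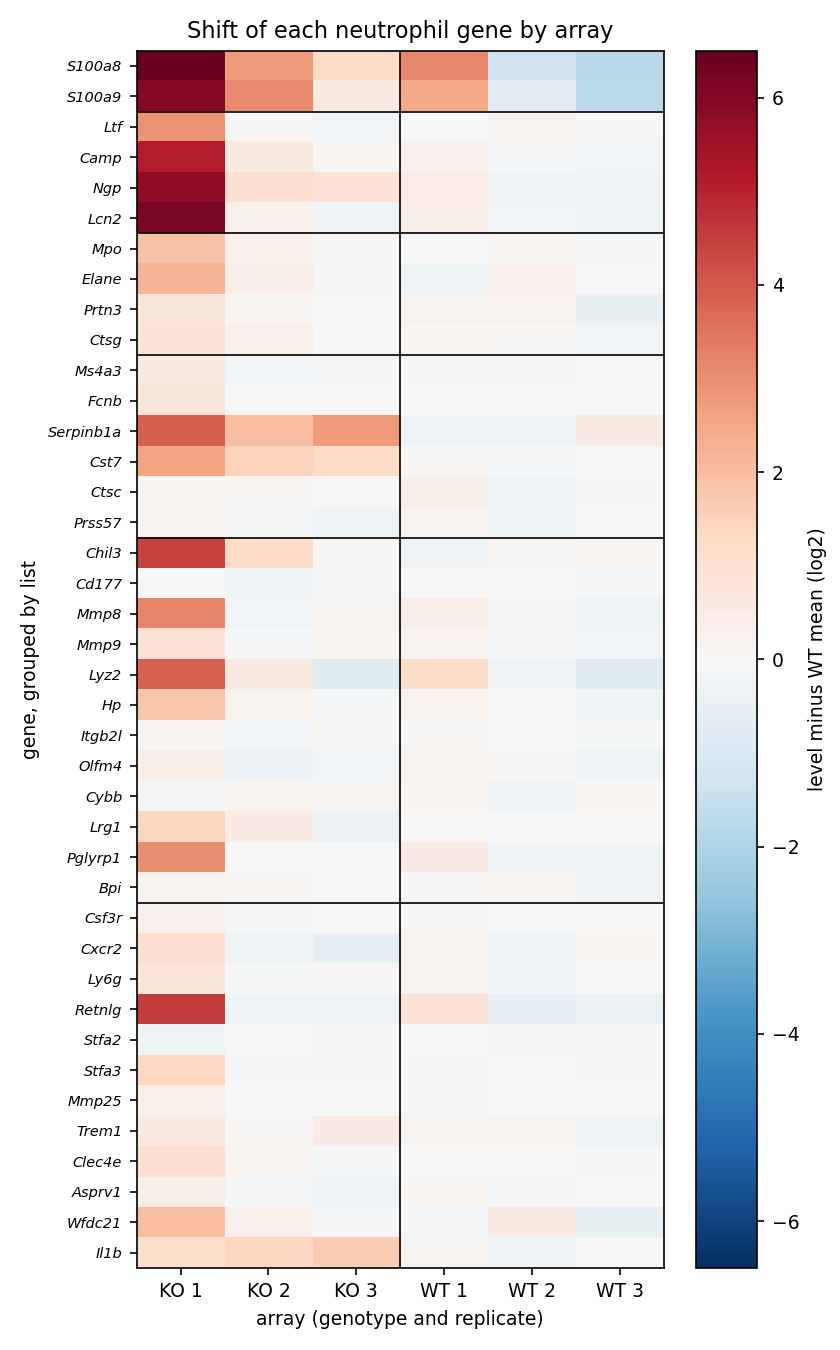
Level minus WT mean (log2, colour) of the 10 members and of 30 other neutrophil genes, 1 row per gene and 1 column per array, with KO arrays left of WT arrays and black lines between the lists. The column of KO replicate 1 is red for most genes, while S100a8, S100a9, Ngp, Serpinb1a, Cst7 and Il1b are above the WT mean by 0.56 or more in all 3 KO columns. Others, such as Camp, Mpo, Elane and Chil3, are also above it in all 3, by 0.15 or less in KO replicate 3.

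Of 8 transcription factors that act on granule genes, 3 rose and 0 fell by limma, against 2.30% and 2.08% of all genes. An unadjusted limma p under 0.05 was found for 5, among them Cebpa and Cebpb, which were lower in KO. Spi1, which encodes PU.1, rose by 1.13 (SE 0.11, limma adjusted p = 0.00161), Myb, a factor of immature cells known for activating Elane and Mpo, by 1.09 (SE 0.11, 0.00201) and Runx1 by 0.80 (SE 0.15, 0.0259). KO replicate 1 was not the highest array for Spi1 or Runx1. Without both replicates 1, Runx1 no longer passed (adjusted p = 0.0545). Cebpe, the factor known for driving secondary granule genes, was highest in KO replicate 1, at 6.31, 5.86 and 5.62 in KO, against 5.75, 5.78 and 5.67 in WT (adjusted p = 0.679). Cebpa, needed for the first granulocyte stages, measured 7.37, 7.69 and 8.05 in KO, against 8.13, 9.07 and 8.49 in WT (adjusted p = 0.142). Cebpa and Cebpe were named after their values were seen. The list's median was 0.08.

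Other lists moved with KO replicate 1 or WT replicate 1, and their part in the granule signal was not tested. All 14 measured mitosis genes had KO replicate 1 as the highest array, with median shifts of 3.03, 0.77 and 0.40 in KO replicates 1 to 3, against -0.02, 0.05 and -0.05 in WT replicates 1 to 3. Mitosis and granule genes were thus highest in the same array. By limma 0 of the 14 passed over all genes, while 6 had an unadjusted p under 0.05. Top2a, a topoisomerase of dividing cells, measured 9.32, 7.20 and 6.79 in KO, against 5.40, 5.74 and 6.06 in WT, and Ccnb2, a mitotic cyclin, 9.20, 6.88 and 6.73 in KO, against 5.62, 5.32 and 5.92 in WT. Without KO replicate 1, 4 of the 14 rose.

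By the median shift of the 10 measured markers of monocytes and macrophages, WT replicate 1 lay below the other WT arrays, opposite to calprotectin. The shifts were -0.41, 0.21 and 0.10 in WT replicates 1 to 3. Within WT, Ccr2 and Cd14 went the other way, highest in replicate 1, and Fcgr1 (5.32, 5.37 and 5.14) did not separate it. Ccr2 and Fcgr1 were named after their values were seen. C1qc, a complement subunit made by macrophages, measured 5.29, 5.74 and 4.93 in KO, against 5.84, 8.93 and 8.57 in WT, and was named after its values were seen. C1qb, its partner, fell by 1.47 (SE 0.30, limma adjusted p = 0.0385), the 1 of 10 measured markers of monocytes and macrophages that passed. Without both replicates 1, 4 of the 10 fell and 1 rose. The summed level of that list lay between 10.47 and 10.54 in KO and between 10.42 and 10.78 in WT. That sum weighs bright genes most, here Ccr2, at 9.80, 10.07 and 10.18 in KO, against 9.83, 9.40 and 9.58 in WT. It does not show that the other markers were unchanged. Of the 10 differences 2 were positive, and the median was -0.33. Cd14, a monocyte marker named after its values were seen, was highest in KO replicate 1 (7.86) and next highest in WT replicate 1 (7.35), with means of 7.01 in both genotypes.

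Among the remaining cell types, markers passed the threshold only in the B cell, T cell and pDC lists. Of 5 measured erythroid markers 0 passed by limma and 0 had an unadjusted p under 0.05, with Klf1 differing by 0.21 and Car2 by 0.08. Of 7 markers of eosinophils, basophils and mast cells 0 passed and 1 had an unadjusted p under 0.05. Prg2, a protein of eosinophil granules, differed by -0.55 and Fcer1a, the IgE receptor chain, by -0.17, and KO replicate 1 was the highest array for 0 of the 7. Of 5 NK cell markers 0 passed and 1 had an unadjusted p under 0.05, with Eomes at -0.43 and Gzma at -0.34. Of 5 measured B cell markers Cd79a rose by 1.65 (limma adjusted p = 0.00603), and of 4 measured T cell markers Cd8a, which some pDCs also carry, rose by 1.51 (0.00128). The T cell list had median shifts of 0.38, -0.33 and -0.12 in KO replicates 1 to 3, against 0.33, -0.15 and -0.12 in WT replicates 1 to 3, so both replicates 1 were its highest arrays. Cd3d, a chain of the T cell receptor complex named after its values were seen, measured 5.47, 4.43 and 4.38 in KO, against 5.63, 4.54 and 4.97 in WT. Its part in the calprotectin signal was not tested. Of 10 measured pDC markers 0 rose and 2 fell, Ccr9, a gut-homing receptor, by 0.97 (limma adjusted p = 0.0221) and Pacsin1 by 0.78 (0.00746), with shifts of -0.27, -0.15 and -0.21 in KO replicates 1 to 3. Its members went both ways in KO replicate 1. Irf7, an interferon regulator, measured 8.61, 9.57 and 9.69 in KO, against 8.94, 8.82 and 9.15 in WT, and Bst2, a surface marker of pDCs, 12.27, 11.72 and 11.69 in KO, against 12.66, 12.38 and 12.33 in WT. Both were named after their values were seen. Without KO replicate 1, 1 of the 10 rose and 3 fell.

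The genes outside the lists whose pattern over the 6 arrays was most like that of the members were, by mean Pearson correlation with the 10 members among 2797 genes with a range of at least 1 log2 unit, G2e3, Alox5, Psmc3ip, Wdr76, Klk8, Cenpe, Neil3, Anln, Mybl2 and Mms22l. Their mean correlations were 0.93 to 0.94 over 6 arrays, a likeness fixed mostly by KO replicate 1, which was the highest array for each. Alox5, which encodes the 5-lipoxygenase of leukotriene synthesis, measured 7.17, 5.93 and 5.41 in KO, against 5.59, 5.31 and 5.05 in WT. Cenpe, a kinetochore motor, measured 7.17, 4.95 and 4.82 in KO, against 4.89, 4.34 and 4.15 in WT. By limma 0 of the 10 passed over all genes, and 0 had an unadjusted p under 0.05, against 3203 of all 19937 genes. These counts were largely set by the choice, since a pattern with KO replicate 1 far above the other KO arrays widens the KO spread.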

How the data were processed

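RNA of 3 KO and 3 WT samples of splenic pDCs was hybridised to Affymetrix arrays after NuGen amplification and biotin labelling, per the labels' protocols. Titles gave the genotype and replicate number. The log2 values deposited by the authors, 1 per probe set and array, had nearly equal array medians (5.53 to 5.56). How they were background-corrected and normalized is not given in the sources used here, and a shift shared by every transcript would be hidden. The number of arrays limits the precision.

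Of 34760 probe sets, 21640 had 1 gene symbol in the platform annotation, 1321 had several and 11799 had none listed. The brightest probe set by 6-array mean stood for each of 19937 genes. The probe set of each of the 10 members shares a RefSeq transcript with its gene. Genotypes were compared with limma 3.58.1 in R 4.3.3 (lmFit and eBayes, no covariates, two-sided, Benjamini-Hochberg adjustment over all genes, threshold 0.05), checked on simulated data. Single genes were also compared by a two-sided exact permutation test over the 20 relabellings.

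The members and gene lists were chosen with earlier results of these data known. The genes named are the 10 members, Irf8, Siglech, up to 4 genes of each further list past the threshold (or the 2 of largest difference where none passed), and the 10 genes most like the members. Others were named after their values were seen. Among them were Ms4a3, Ly6g, Cxcr2, Csf3r, Retnlg, Wfdc21, Stfa3, Cebpa, Cebpb, Cebpe, C1qc, Cd14, Ccr2, Fcgr1, Cd3d, Irf7 and Bst2. The alternatives were other normalizations, a filter on dim genes, means of probe sets, another variance model, left-out arrays, weights per array (with statmod 1.5.0) and a block for the replicate number. Promoters were read from RefSeq windows on GRCm38.p6. Figures were drawn with matplotlib 3.10.9.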

Additional observations from a re-analysis of the deposited data

How the results depend on the processing

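The 10 members were refitted under 14 alternatives, and of their 136 values 129 kept their direction and their side of the threshold. Part of this was fixed in advance. Each member has 1 probe set, so means of probe sets left its levels unchanged. The other variance model and the block cannot change a difference. Genes past the threshold numbered 874 in all, 1363 with array weights, 1362 with the replicate number as a block, 1382 without both replicates 1, and 451 (without KO replicate 2) to 1499 (without KO replicate 1) when single arrays were left out, with 462 without KO replicate 3, 503 without WT replicate 3 and 532 without WT replicate 2. Members past the threshold numbered 0 in all, 0 to 1 without single arrays (Ngp, without KO replicate 1), 2 without both replicates 1 (S100a8 and Ngp), and 2 with the block, S100a8 (adjusted p = 0.000314) and S100a9 (0.00126), where 6.83% of all genes passed. The labels do not say that the numbers pair the arrays. Deviations from the group means correlated at 0.379, 0.097 and 0.252 between same-numbered arrays 1, 2 and 3, and KO replicate 2 correlated best with WT replicate 3, so the block is given here alone. Ltf, between -0.04 (reversed, without KO replicate 1) and 1.49 with single arrays left out, also reversed to -0.05 without both replicates 1; both values are near 0. The median difference of the primary genes was 0.57 and ran from 0.17 without KO replicate 1 to 0.85 without KO replicate 3. That of the later genes was 2.31 and ran from 0.70 to 3.31 under the same omissions, and the primary minus later value, -1.74, from -2.45 to -0.53. Among bright genes alone, 1 primary and 5 later genes were left. The causes were not tested.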
